A study of Mus musculus and Homo sapiens with 60 samples.

Results

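RNA polymerase II (RNAPII), the enzyme that transcribes protein-coding genes, was mapped by chromatin immunoprecipitation and sequencing (ChIP-seq) in B cells of the Eµ-myc mouse, which carries a Myc transgene driven by the immunoglobulin heavy chain enhancer and develops B-cell lymphoma. The RNAPII libraries of this model were 5 of 60 samples, of which 53 had a peak list, and were found by their titles. They came from wild-type spleen (1 library), transgenic spleen (1 library) and transgenic lymph node tumours (3 libraries), all in C57BL/6 mice with no treatment and with the same antibody (sc-899). Spleen B cells were taken from animals of 6 to 8 weeks and enriched on B220 beads, whereas the tumours were lymph node cells passed through a strainer and not purified further. The sources used here give no age for the tumour-bearing animals. The labels do not say whether the tumours came from separate animals, and the p-values below then cover the spread among these libraries only. Organ, purification and tumour state differ together between the groups and cannot be told apart. Each group was identified from its labels, since no gene annotation on the build of the lists was used here to look at B-cell genes.

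RNAPII starts at promoters, where nucleosomes carry trimethylation of histone H3 at lysine 4 (H3K4me3), often pauses just downstream, and then runs through the gene body and past its end. It is also found at enhancers, which carry H3K4me1 without H3K4me3 and, when active, H3K27 acetylation (H3K27ac). A peak was therefore called a promoter peak where it overlapped H3K4me3 of the same stage by at least 1 bp, a distal H3K4me1 peak where it overlapped H3K4me1 and no H3K4me3, and an unmarked peak where it overlapped neither. All positions are on the mouse build mm9. With 2 spleen and 3 tumour libraries an exact two-sided permutation test has 10 assignments and cannot go below p = 0.2, so no difference below could pass a threshold of 0.05. Values are therefore given for each library, with the number of tumours outside the spleen range.

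All 3 tumours held more RNAPII peaks than either spleen library, and the excess was largest for peaks away from both marks. The lists held 15571 peaks in wild-type spleen, 17173 in the transgenic spleen and 27719, 31442 and 28315 in tumours 1, 2 and 3 (120220 in all). The tumour mean of 29159 ± 2000 peaks (SD, n = 3) was 1.78 times the spleen level as a ratio of geometric means (exact p = 0.2). The covered length was 17.9 Mb in wild-type spleen and 11.1 Mb in the transgenic spleen, against 22.3, 68.5 and 65.0 Mb in the tumours. The ratio of covered length was 3.29 (exact p = 0.2, above both spleen lists in 3 of 3 tumours), and it was 1.78 when each peak was set to 500 bp, since tumours 2 and 3 had much wider peaks than the other 3 lists. With equal numbers of highest-scoring peaks the ratio was 2.50 (exact p = 0.4), and tumour 1, with 17.6 Mb, no longer lay above wild-type spleen, with 17.9 Mb. Read depth is not known from peak lists, so what sequencing depth or enrichment contributed to these numbers was not tested.

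Promoter peaks numbered 10418 in wild-type spleen and 11263 in the transgenic spleen, and 13968, 14561 and 14469 in the tumours, a ratio of 1.32. Distal H3K4me1 peaks numbered 2443 and 2630 in the spleen lists and 4007, 5255 and 5035 in the tumours, a ratio of 1.87. Unmarked peaks numbered 2710 and 3280 in the spleen lists and 9744, 11626 and 8811 in the tumours, a ratio of 3.35. In each class the 3 tumours lay above both spleen lists (exact p = 0.2). As a share of its list, the promoter class took 66.9% (exact 95% interval 66.2 to 67.7) in wild-type spleen and 65.6% (64.9 to 66.3) in the transgenic spleen, against 50.4%, 46.3% and 51.1% in the tumours. The unmarked class took 17.4% and 19.1% in the spleen lists, against 35.2%, 37.0% and 31.1% in the tumours. The tumour means were 49.3% ± 2.59 for promoter peaks and 34.4% ± 3.00 for unmarked peaks (SD, n = 3), a difference of -17.0 and 16.2 percentage points from the spleen means (exact p = 0.2 for both). The distal share did not separate the groups, at 15.7% and 15.3% in spleen and 14.5%, 16.7% and 17.8% in tumours (difference 0.815 points, exact p = 0.6). The size of the shift depended on how many peaks of each list were used. Among the upper-scoring part of each list, at or above its own median score, the promoter difference was -14.7 points and the unmarked difference 12.6 points. When every list was limited to its 15571 highest-scoring peaks, which keeps the whole wild-type list and cuts mainly those of the tumours, they were -1.48 and 4.65 points. Tumour 3 then lay within the spleen range for promoter peaks, at 67.9% against 66.9% and 69.0% (exact p = 0.4), while the unmarked share was above both spleen lists in 3 of 3 tumours.

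**Figure D1:**
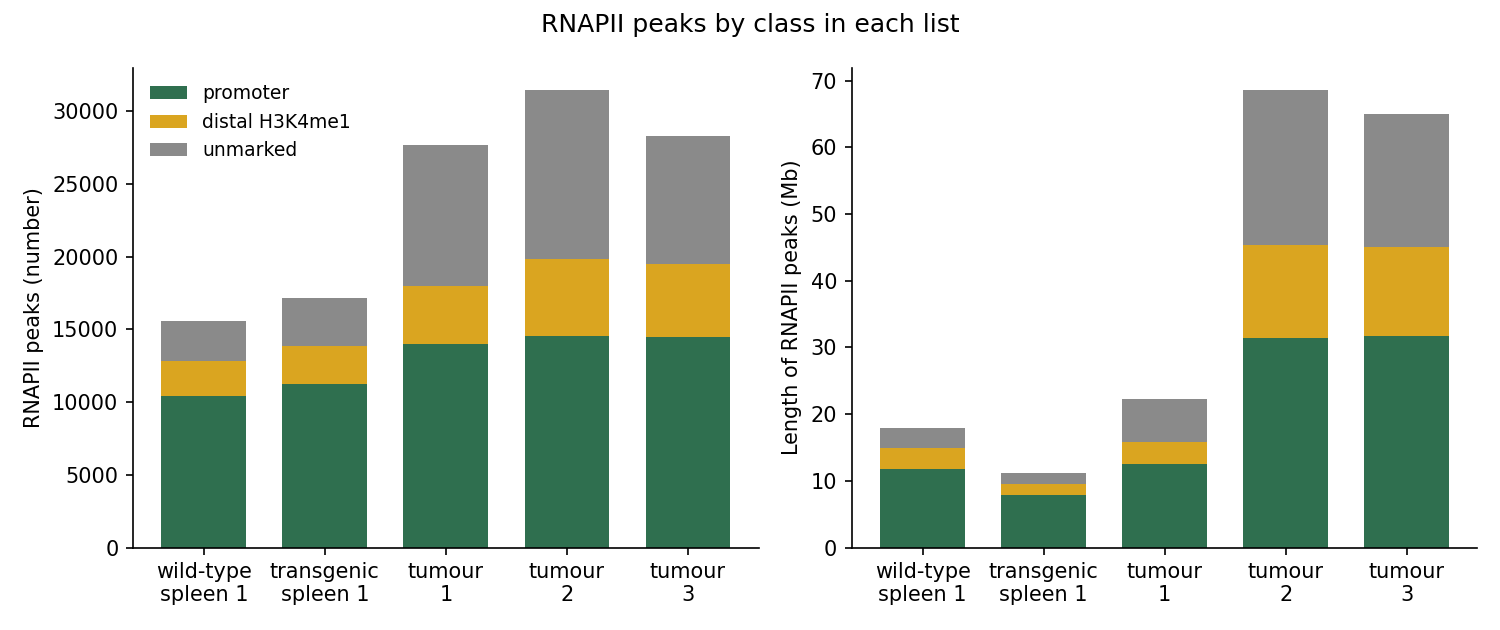
RNAPII peaks of each list by class, as the number of peaks (left) and as their summed length in Mb (right), with 1 bar per library. Unmarked peaks number 2710 and 3280 in the spleen lists and 8811 to 11626 in the tumours, and the length of tumours 2 and 3 (68.5 and 65.0 Mb) stands far above that of tumour 1 (22.3 Mb).

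Tumours 2 and 3 stood apart from tumour 1 in the width of their RNAPII peaks, in all classes. The median width was 894 bp in wild-type spleen, 524 bp in the transgenic spleen and 581, 1432 and 1545 bp in the tumours. The groups overlapped, since the wild-type spleen peaks were wider than those of tumour 1 (difference 477 bp, exact p = 0.4). The difference was 292 bp without the transgenic spleen library, 780 bp without tumour 1 and 298 bp without tumour 3. It was 773 bp among peaks at or above each list's median score and 961 bp with equal numbers of peaks. Peaks over 5 kb numbered 183, or 1.18% of the list, in wild-type spleen, 26 (0.151%) in the transgenic spleen, 174 (0.628%) in tumour 1, 2228 (7.09%) in tumour 2 and 2117 (7.48%) in tumour 3. These wide peaks held 20.6 Mb in tumour 2 and 19.0 Mb in tumour 3, more than the whole list of either spleen library. The longest peak measured 32923 bp in wild-type spleen, 14728 bp in the transgenic spleen and 16302, 68449 and 58736 bp in the tumours.

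The narrowest peaks differed between lists as well, so the widths were shifted as a whole and not in the widest peaks alone. The smallest width was 220 bp in wild-type spleen, 88 bp in the transgenic spleen, and 111, 282 and 328 bp in the tumours, and the 10th percentile was 588, 268, 298, 861 and 946 bp in the same order. The tumour lists of the same numbers for the other targets showed no gap of this size, although the labels do not say that equal numbers mean the same tumour. Median widths in tumour lists 1, 2 and 3 were 2188, 1945 and 1834 bp for H3K4me3 and 2086, 2279 and 2052 bp for H3K4me1. They were 1724, 2201 and 1964 bp for H3K27ac and 1473, 1391 and 1386 bp for Myc. The median peak score, which the authors' caller gives on the scale of -10 log10 p, was 213 and 215 in the spleen lists and 216, 279 and 329 in the tumours, so the lists with wide peaks, tumours 2 and 3, also had the highest scores. The part of score in the width was not tested.

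Width followed the list more than the class. Promoter peaks had a median of 908 and 599 bp in the spleen lists and 705, 1435 and 1513 bp in the tumours. Distal H3K4me1 peaks had medians of 889 and 428 bp in spleen and 498, 1541 and 1577 bp in tumours. Unmarked peaks had medians of 833 and 364 bp in spleen and 441, 1383 and 1609 bp in tumours. In both spleen lists and in tumour 1 the promoter class had the widest median, whereas in tumour 2 the distal class did and in tumour 3 the unmarked class.

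**Figure D2:**
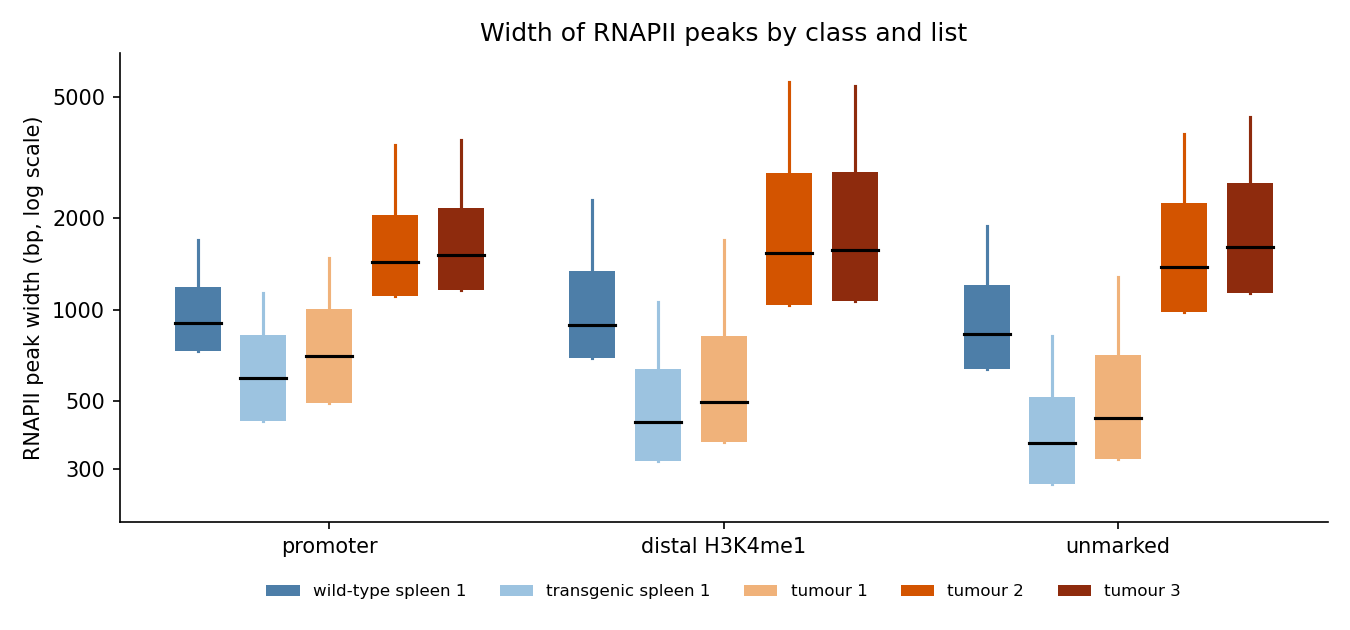
Width of RNAPII peaks in bp on a log scale, by class and list. Boxes run from the 25th to the 75th percentile, the black line is the median and the upper line ends at the 90th percentile; the medians of tumours 2 and 3 lie between 1383 and 1609 bp in each class, and those of the other lists between 364 and 908 bp.

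Promoter RNAPII of the tumours lay largely on regions that spleen RNAPII also held, and constant H3K4me3 regions were occupied more often in each tumour than in either spleen list. Of the promoter peaks of tumours 1, 2 and 3, 3231 (23.1%), 4183 (28.7%) and 4525 (31.3%) overlapped no peak of either spleen list. Of these, 66.1%, 56.8% and 55.9% were already on H3K4me3 in wild-type spleen, and a further 28.5%, 36.3% and 32.3% were on H3K4me1 there. To hold the promoters constant, the 12548 regions with H3K4me3 in all 7 lists of the model were taken (of 27187 merged regions). RNAPII was on 64.8% of them in wild-type spleen and 67.9% in the transgenic spleen, and on 71.2%, 78.4% and 79.9% in the tumours. RNAPII was on 7033 of them in all 5 lists and on 1744 in none. A further 515 (4.1% of the 12548) had it in each of the 3 tumours but neither spleen list, and 23 (0.183%) had it in both spleen lists and in no tumour. These 515 regions had a median H3K4me3 width of 2703 bp, between the 2293 bp of the regions without RNAPII and the 3495 bp of those with RNAPII in all 5 lists. Over all H3K4me3 regions of each stage, by contrast, the share with RNAPII was 48.6% and 51.5% in spleen and 41.6%, 51.5% and 51.8% in tumours (difference -1.74 points, exact p = 1). The number of H3K4me3 regions itself was 18649 in wild-type spleen, 17701 in the transgenic spleen and 26252 in tumours, merged over 2, 2 and 3 lists, and the direction of this difference turned without tumour 1 (1.61 points). With equal numbers of highest-scoring peaks the difference was -12.2 points, with all 3 tumours below both spleen lists (exact p = 0.2).

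Promoter RNAPII carried H3K27ac almost throughout, and Myc most often in the tumours. H3K27ac of the same stage and number covered 99.0% and 98.6% of promoter peaks in the spleen lists and 95.8%, 97.2% and 97.3% in the tumours, which were below both spleen lists in 3 of 3. Myc, the transcription factor that the transgene encodes, was on 35.1% of promoter RNAPII peaks in wild-type spleen and 53.8% in the transgenic spleen, against 94.5%, 91.8% and 90.0% in the tumours (difference 47.6 points, exact p = 0.2). The other 2 Myc libraries of transgenic spleen were on 34.4% and 65.5% of the same transgenic peaks. The Myc lists differed in size beside this, with 6978 peaks in wild-type spleen, 5246 to 12985 in the transgenic spleen and 27347 to 34142 in the tumours, and the 2 spleen Myc lists of number 1 had narrow peaks (medians of 233 and 261 bp). With the wild-type marks and Myc list used for every library, the promoter difference was -0.612 points. No tumour Myc enters that value, so it does not compare Myc between the groups. At the 515 constant H3K4me3 regions with RNAPII in the tumours and in neither spleen list, Myc was present in all 3 tumour lists at 91.3%, against 95.7% where RNAPII was in all 5 lists and 28.4% where it was in none.

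In the tumours, a larger part of RNAPII lay outside H3K4me3, and this held for tumour 1 with its narrow peaks as well. The share of covered length outside H3K4me3 of the stage was 37.9% in wild-type spleen, 30.6% in the transgenic spleen and 48.1%, 65.0% and 62.2% in the tumours (difference 24.2 points, exact p = 0.2, above both spleen lists in 3 of 3). Within the promoter peaks alone, 6.01% and 3.00% of the length lay outside H3K4me3 in spleen, against 7.38%, 23.6% and 22.8% in the tumours. Promoter peaks with at least 1 kb of their length outside H3K4me3 made up 1.89% and 0.55% of the class in spleen. In the tumours they made up 1.98%, 9.48% and 10.2%. Tumour 1 thus differed little from wild-type spleen in the part of promoter peaks outside H3K4me3. Its separate unmarked peaks were about as many as in the other tumours.

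Reach was measured at the 7033 regions with H3K4me3 in all 7 lists and RNAPII in all 5. It is the unbroken RNAPII length past an edge of the region. Mean values add both sides of a region, whereas counts of runs of at least 1 or 5 kb are per side. The mean reach was 85.4 bp in wild-type spleen, 23.8 bp in the transgenic spleen and 105, 747 and 700 bp in the tumours (difference 463 bp, exact p = 0.2). Any reach was found at 5.49% and 2.83% of the regions in spleen and at 7.55%, 18.9% and 18.7% in the tumours. Where RNAPII did run past an edge, its median reach was 707 and 322 bp in spleen and 662, 2077 and 2148 bp in the tumours. Runs of at least 5 kb were found at 25 and 5 regions in spleen, at 20 in tumour 1, at 355 in tumour 2 and at 314 in tumour 3. Long runs were nearly always on one side of the region, since 57 and 58 regions in tumours 2 and 3 had at least 1 kb on both sides, of 870 and 859 with at least 1 kb on any side. RNAPII reached further in each tumour than in both spleen lists at 374 regions (5.32% of the 7033) and less far than in both at 1 region (0.0142%). Tumours 2 and 3 both lay above the other 3 lists at 896 regions (12.7%). These tumours were already set apart by their wide peaks, and reach depends on peak width. Their greater reach is therefore a description and not a finding separate from width. With peaks joined across gaps of up to 1000 bp, the difference in mean reach was 985 bp.

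**Figure D3:**
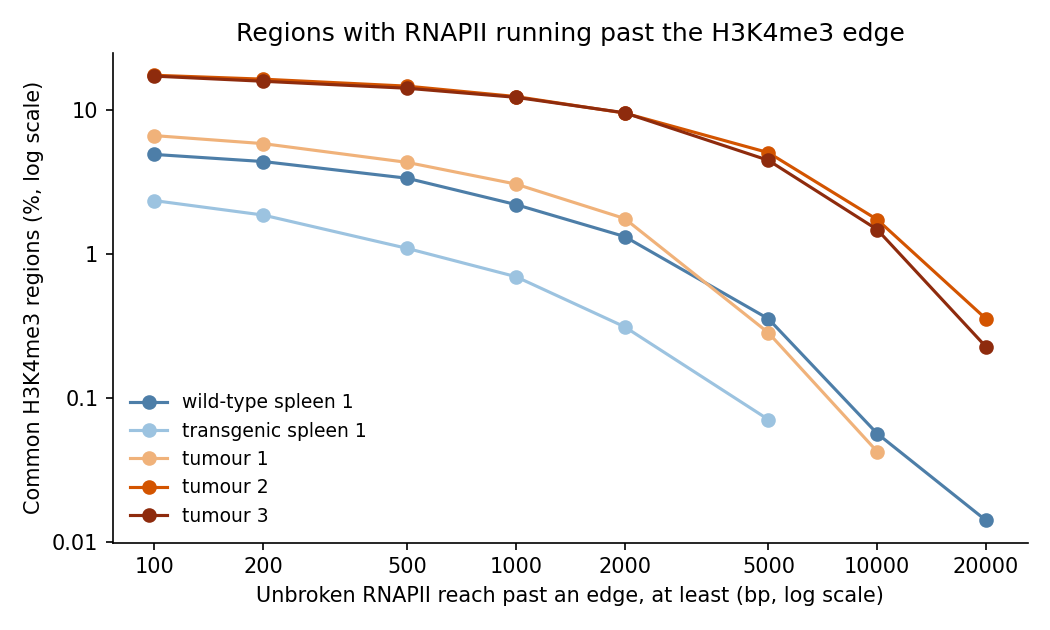
Share of the 7033 common H3K4me3 regions with RNAPII running without a break past an edge by at least the distance on the x axis, both axes on a log scale, with 1 line per library and values of 0 not drawn. At 1000 bp, tumours 2 and 3 stand at 870 and 859 regions, tumour 1 at 215, wild-type spleen at 155 and transgenic spleen at 49.

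The 5 regions with the largest difference in reach illustrate runs that are absent or short in spleen. The reach of a region is given here with both sides added. At chr1:155331096-155336589, RNAPII reached 169 bp past H3K4me3 in wild-type spleen, 0 bp in the transgenic spleen and 208, 33700 and 39121 bp in tumours 1, 2 and 3. At chr4:126697522-126703238 the reach was 0 bp in both spleen lists and 327, 27346 and 20786 bp in the tumours. At chr11:6417717-6422945 it was 0 and 500 bp in spleen and 4015, 21764 and 20975 bp in the tumours. Of this, tumours 2 and 3 held 15352 and 14554 bp on the side of lower coordinates and the rest on the other. In these 3 regions tumour 1 lay above both spleen lists by far less than tumours 2 and 3 did. At chr1:88252475-88258688, by contrast, all 3 tumours reached about as far, with 13735, 13738 and 13884 bp against 0 bp in both spleen lists, and all of it was on the side of lower coordinates. At chr2:144089990-144098681 spleen RNAPII already ran 2089 and 1629 bp past the edge, and the tumours ran 4046, 20571 and 19534 bp. The single region with less reach in all 3 tumours was chr17:45691716-45697039, with 668 and 227 bp in spleen and 0 bp in each tumour.

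The side of these runs was mostly the same as in another cell type. The 3T9 cells of the series are mouse embryonic fibroblasts that carry MycER, a Myc protein switched on by 4-hydroxytamoxifen. In their RNAPII list at 0 h, before the switch, 2041 of the common regions had RNAPII reaching at least 500 bp further on one side than on the other, and that side was taken as the chosen side. RNAPII of the B cells reached 149 bp on average on the chosen side against 11.6 bp on the other in wild-type spleen, and 51.9 against 1.88 bp in the transgenic spleen. In the tumours it reached 286 against 17.3 bp, 1596 against 164 bp and 1415 against 191 bp. With a margin of 2000 bp in place of 500 bp, the chosen side held 458, 2478 and 2214 bp in the tumours and 234 and 85.5 bp in spleen. With the fibroblast list at 4 h it held 422, 2128 and 1880 bp in the tumours and 213 and 83.5 bp in spleen. Among regions where the sides differed, RNAPII reached further on the chosen side at 197 and on the other at 25 in wild-type spleen (88.7%), and at 127 and 8 in the transgenic spleen (94.1%). The counts were 371 and 39 (90.5%), 702 and 88 (88.9%), and 665 and 99 (87.0%) in the tumours. Reach differed between the lists in length, while in each of the 5 the longer side was mostly the chosen one.

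Around these regions tumour 1 also lay above both spleen lists in covered bases, although its single peaks did not run far. In the first kb past the edge on the chosen side, RNAPII peaks covered 9.69% of bases in wild-type spleen, 6.69% in the transgenic spleen, 19.8% in tumour 1, 37.0% in tumour 2 and 35.9% in tumour 3. On the other side they covered 1.30% and 0.55% in spleen and 2.21%, 6.85% and 7.05% in the tumours. At 20 to 21 kb on the chosen side the coverage was 4.26%, 2.69%, 7.25%, 21.2% and 18.4% in the same order, against 3.31%, 2.27%, 4.57%, 11.6% and 11.5% on the other. The chosen side stayed above the other in each list at that distance. H3K4me3 of the stage also covered more bases on the chosen side there. It covered 8.30% against 7.26% in wild-type spleen, 6.55% against 5.97% in transgenic spleen and 9.17% against 8.88% in tumours. What neighbouring H3K4me3 regions contributed to RNAPII coverage at that distance was not tested.

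**Figure D4:**
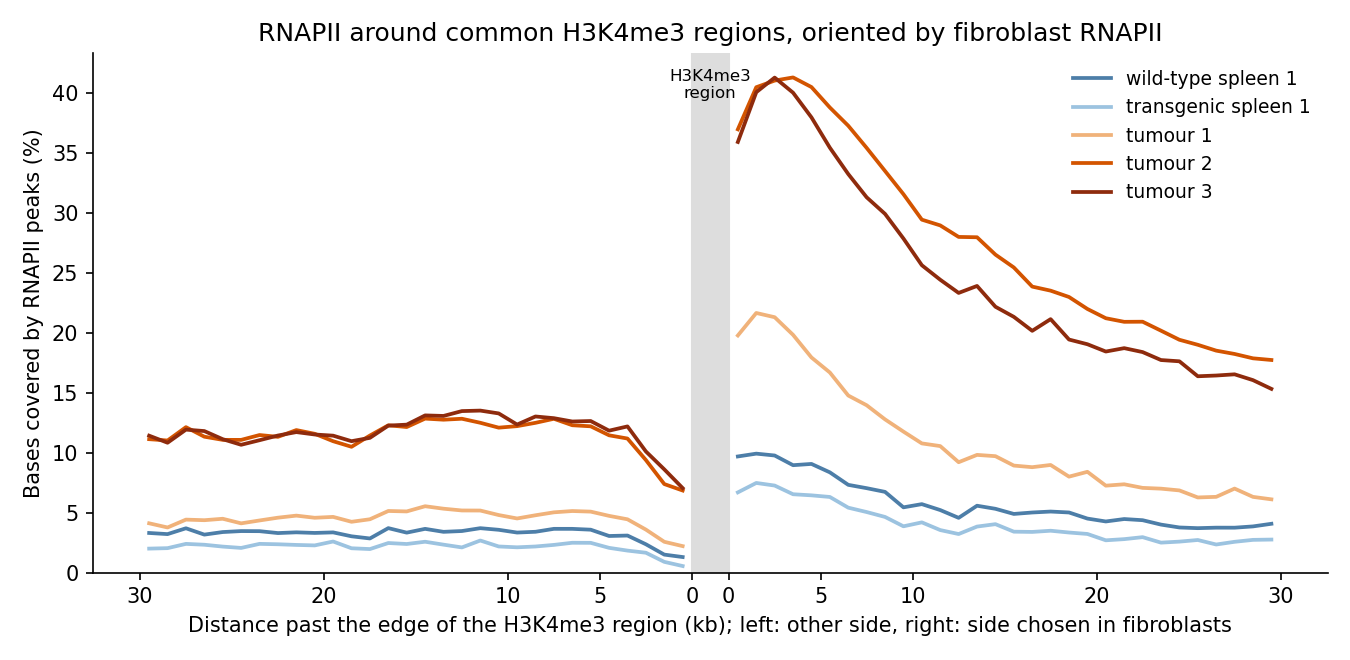
Percentage of bases covered by RNAPII peaks in bins of 1 kb past the edges of 2041 common H3K4me3 regions, turned so that the side with longer fibroblast RNAPII is on the right; the grey band stands for the H3K4me3 region and is not to scale. On the right the first bin stands at 37.0% and 35.9% in tumours 2 and 3, 19.8% in tumour 1, and 9.69% and 6.69% in spleen, and on the left no list exceeds 7.05% there.

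Unmarked peaks lay on the chosen side too, and often in a row with a promoter peak. Within 20 kb of the 2041 regions, 614 unmarked peaks lay on the chosen side and 220 on the other in wild-type spleen, and 1081 and 311 in the transgenic spleen. The tumours had 2933 and 817, 1936 and 720, and 1540 and 632, so tumour 1 held the most separate unmarked peaks there. When peaks separated by at most 5 kb were taken as a cluster, 25.4% and 24.4% of unmarked peaks in spleen and 34.0%, 39.8% and 36.2% in the tumours shared a cluster with a promoter peak (difference 11.8 points, exact p = 0.2, above both spleen lists in 3 of 3). The remaining unmarked peaks, the larger part of the class in each list, had no promoter peak in their cluster. The tumour lists held more peaks over more bases, which brings neighbours within 5 kb more readily. What this contributed to the difference in cluster share was not tested. Clusters over 20 kb numbered 143 and 54 in spleen and 209, 1021 and 823 in the tumours, and 76.9% to 86.9% of them held a promoter peak. The median distance of an unmarked peak from H3K4me3 was 14.1 and 12.0 kb in spleen and 10.8, 14.7 and 12.8 kb in the tumours, which did not separate the groups.

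Unmarked peaks carried little of the other factors and scored lower than promoter peaks in each list. H3K27ac covered 0.738% and 0.518% of them in spleen and 0.144% to 0.43% in the tumours, and Myc covered 0.0738% and 0.0915% in spleen and 0.874% to 1.73% in the tumours. Their median score percentile within the list was 28.8 and 25.7 in spleen and 33.1, 33.6 and 32.8 in the tumours, against 60.3 to 68.3 for promoter peaks. In tumours 1, 2 and 3, 7561 (77.6%), 10289 (88.5%) and 7571 (85.9%) of them overlapped no spleen RNAPII peak. Of these, 95.5%, 92.3% and 94.7% were unmarked by the wild-type marks as well. Spleen unmarked peaks were themselves found again in the tumours, at 55.2%, 82.8% and 75.1% of those of wild-type spleen and 68.9%, 91.3% and 84.5% of those of transgenic spleen.

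Chromosomes 3 and 5 held an uneven part of the peaks in tumours 1 and 2. In tumour 1, 10.6% of unmarked peaks, 8.71% of distal peaks and 5.68% of promoter peaks lay on chromosome 3, which held 4.05% to 4.67% of the unmarked peaks of the other lists. In tumour 2, chromosome 5 held 9.78% of unmarked, 10.5% of distal and 7.59% of promoter peaks. In the other lists it held 5.34% to 6.65%, 4.99% to 6.67% and 6.29% to 6.77% of these classes. Without both chromosomes the difference in unmarked share was 15.6 points.

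Distal RNAPII on H3K4me1 differed between lists in its acetylation and its Myc. H3K27ac covered 61.2% of distal peaks in wild-type spleen, 45.4% in the transgenic spleen and 24.0%, 32.6% and 53.2% in the tumours, so that tumour 3 lay within the spleen range (difference -16.7 points, exact p = 0.4). The difference was -8.81 points without wild-type spleen and -10.4 points without tumour 1. It was 0.72 points with the wild-type marks and H3K27ac list for every library, a setting that no tumour H3K27ac enters. It was -2.33 points with H3K4me3 regions found in every list of the stage. With 1 list of each mark in place of merged marks it was -6.18 points. The spleen lists were then at 67.7% and 50.2% and the tumours at 44.7%, 49.1% and 64.5%. In number, acetylated distal peaks were 1494 and 1195 in spleen and 963, 1715 and 2680 in the tumours, with tumour 1 below both spleen lists. Distal peaks off H3K27ac were 949 and 1435 in spleen and 3044, 3540 and 2355 in the tumours, all above both spleen lists. In these counts the distal class used marks merged over 2 lists per spleen stage and 3 for the tumours, whereas H3K27ac came from 1 list. What this contributed to the counts was not tested. In tumours 2 and 3 the peaks off H3K27ac were the wider ones, with medians of 1716 and 2044 bp against 1206 and 1258 bp on it. In the other 3 lists the 2 medians were closer, at 948 against 858 bp in wild-type spleen, 405 against 446 bp in the transgenic spleen and 504 against 487 bp in tumour 1.

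Myc was on 2.95% and 7.53% of distal RNAPII peaks in spleen and on 25.0%, 23.7% and 40.5% in the tumours (difference 24.5 points, exact p = 0.2, above both spleen lists in 3 of 3). It was found mostly on the acetylated ones, at 74.9%, 61.0% and 69.0% of these in the tumours against 9.23%, 5.65% and 8.03% of those off H3K27ac. In wild-type spleen the values were 4.69% and 0.211%, and in the transgenic spleen 16.0% and 0.488%. The sizes of the Myc lists given above bear on these shares too. With the wild-type marks and Myc list for every library, a setting that no tumour Myc enters, the difference was 0.169 points. The transgenic spleen libraries 2 and 3 for Myc, with peak widths like those of the tumours, were on 9.77% and 20.6% of the transgenic distal peaks.

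**Figure D5:**
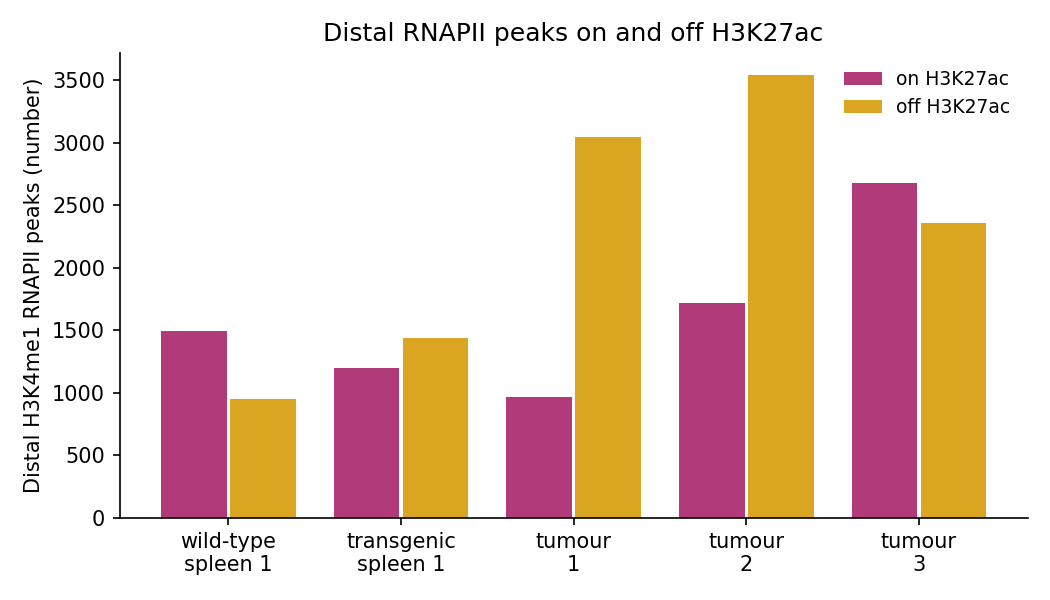
Number of distal H3K4me1 RNAPII peaks on and off H3K27ac in each list, with the H3K27ac list of the same stage and number. The distal class used marks merged over 2 lists per spleen stage and 3 for the tumours, and H3K27ac came from 1 list. Peaks off H3K27ac number 949 and 1435 in the spleen lists and 2355 to 3540 in the tumours, while those on it number 963 in tumour 1, below the 1494 and 1195 of spleen, and 2680 in tumour 3.

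Distal peaks lay near promoters in all lists, with medians of 7.24 and 6.24 kb from H3K4me3 in spleen and 4.50, 6.66 and 6.26 kb in the tumours. They shared a cluster with a promoter peak in 46.0% and 45.9% of cases in spleen and in 53.2%, 57.3% and 50.3% in the tumours. What the larger tumour lists contributed to this share was not tested. Of the distal peaks of tumours 1, 2 and 3, 63.9%, 76.6% and 80.2% overlapped no spleen RNAPII. H3K4me1 was already there in wild-type spleen for 62.0%, 69.7% and 60.3% of these, and for 36.1%, 28.3% and 38.0% neither mark was.

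Spleen RNAPII was largely retained in the tumours, and the tumours differed most from each other away from promoters. Of the wild-type spleen peaks, 72.9%, 89.1% and 82.7% were found in tumours 1, 2 and 3, and of the transgenic spleen peaks 80.3%, 94.1% and 89.3%. The 2 spleen lists found each other less completely than tumours 2 and 3 found them, at 71.5% of wild-type peaks in the transgenic spleen and 78.6% in the other direction, with fewer bases covered in the spleen lists. In reverse, the wild-type spleen list held 45.1%, 36.2% and 37.6% of the tumour peaks. Between tumours 2 and 3, whose lists are alike in size and width, 79.2% of tumour 2 promoter peaks were found in tumour 3, against 48.2% of distal and 48.6% of unmarked peaks. The reverse shares were 78.9%, 49.4% and 61.6%. Of the promoter, distal and unmarked peaks of tumour 1, 93.7%, 83.8% and 84.7% were found in tumour 2, a smaller gap. Of those of tumour 2, 74.6%, 32.3% and 25.4% were found in tumour 1. Distal and unmarked peaks of tumour 2 also scored lower than its promoter peaks, at median percentiles of 38.5 and 33.6 against 68.3. What score contributed to these shares was not tested. Merging the 5 lists gave 40758 regions, of which 8179 (20.1%) were in all 5 lists, and 91.7% of these were promoter regions by the tumour marks. A further 2944 regions (7.22% of the 40758) were in each of the 3 tumours but neither spleen list, of which 942 were promoter, 612 distal and 1390 unmarked by the same marks. The reverse, in both spleen lists and in no tumour, held for 114 regions (0.28%), of which 64 were promoter, 35 distal and 15 unmarked by the spleen marks. That count was 750 with peaks set to 500 bp.

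The highest-scoring regions found in each of the 3 tumours but neither spleen list show the distal and unmarked classes one by one, all with 0 bp of RNAPII in both spleen lists. The distal region chr16:17149726-17154187 held 4110, 4374 and 4462 bp of RNAPII in tumours 1, 2 and 3, at a mean score percentile of 97.3. It lay 0.379 kb from tumour H3K4me3 and had neither H3K4me1 nor H3K4me3 in spleen. The distal region chr6:115779633-115783808 held 2357, 4155 and 3085 bp, with a mean percentile of 96.9. It already carried H3K4me1 and H3K27ac in spleen, with Myc in 1 transgenic spleen list. In the tumours, H3K27ac was there in 2 lists and Myc in all 3. The distal region chr14:52766518-52785331 held 8565, 14839 and 18796 bp, 0.781 kb from tumour H3K4me3. Among unmarked regions, chr15:81734289-81750501 held 11421, 15305 and 15812 bp and lay 3.49 kb from tumour H3K4me3. The region chr2:121881797-121892959 held 6733, 9632 and 11163 bp and lay 25.1 kb from it. The region chrX:159218939-159231575 held 6255, 12637 and 10179 bp, 18.4 kb from H3K4me3. These values are the bases that each list covers within the region, which can be several peaks. Tumour 1 covered fewer bases than tumours 2 and 3 in all 6 regions, yet over 2 kb in each.

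The longest stretches, taken over the merged lists of a group, were partly shared by all lists and partly held by a few. A stretch can join peaks of several lists, and the values are the bases that each list covers within it. In spleen the longest was chr2:163438528-163471450, with 32923 bp covered in wild-type spleen, 31223 bp in the transgenic spleen and 30262, 32923 and 32833 bp in the tumours, and it held H3K4me3 in all stages. The next, chr12:114640216-114668135, was covered over 27920 and 27066 bp in spleen and 25652, 27920 and 26508 bp in the tumours. In contrast, chr9:32547510-32568448 was covered over 20939 and 16958 bp in spleen but 7433, 0 and 17928 bp in the tumours. The other 2 of the 5 longest spleen stretches, chr1:53817559-53835787 and chr13:52709156-52726753, were covered over 18229 and 17562 bp in wild-type spleen and were in all 5 lists.

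Of the tumours' 5 longest stretches, the longest of all, chr4:44660216-44728664, was unbroken in tumour 2 alone, with 68449 bp there against 17310 and 11618 bp in tumours 1 and 3. Wild-type spleen covered 42332 bp of it and transgenic spleen 13330 bp. The stretch chr11:11584478-11638248 was likewise widest in tumour 2, with 53676 bp against 26742 and 13573 bp in tumours 1 and 3 and 33300 and 12580 bp in spleen. The stretch chr5:122893543-122948636 had no H3K4me3 in any stage, although the nearest H3K4me3 lay only 0.872 to 1.19 kb away. RNAPII covered 1359 and 671 bp of this stretch in spleen against 15855, 54709 and 45944 bp in the tumours. The stretch chr1:89807650-89855690, also without H3K4me3 and 43.1 to 48.3 kb from it, was covered over 13972 and 12531 bp in spleen. In the tumours it was covered over 16901, 48041 and 29360 bp. At chr5:66245627-66292806 tumour 1 covered 4083 bp, less than the 18074 and 9849 bp of spleen, while tumours 2 and 3 covered 44958 and 47180 bp.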

How the data were processed

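Reads were aligned with BWA 0.6.2 and handled with SAMtools, and peaks were called with MACS 1.4.1 on mm9, per the submitters' processing notes, which give no settings. Sonicated fragments averaged 250 bp, per the labels' protocols. Each library had its own deposited list, with 1 score per peak (the authors' value, which MACS writes as -10 log10 p), used only to rank or filter within a list. RNAPII lists held 100% of their peak numbers and Myc lists 47.7% to 78.4%, and no source used here says what removed the missing Myc peaks.

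Marks of a stage were its merged lists, and H3K27ac and Myc were taken from the library of the same stage and number. Distances, clusters and reach were computed from the intervals, and exact two-sided permutation p-values as double the smaller tail. Binomial intervals are exact (Clopper-Pearson) and cover counting error only.

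Regions were named by rule: the 5 with the largest difference in reach in each direction among those with no overlap between groups, the 5 longest stretches of each group's merged lists with RNAPII in every list of the group, and the 3 distal and 3 unmarked regions in the tumours alone with the highest mean score percentile, without chromosome 18. Lists, classes and rules were chosen with earlier results of these data known. Leaving out chromosomes 3 and 5 and shortening peaks were added after seeing the data. No mm9 genome or annotation was used here, so no gene or sequence is given. Python 3.11.15, numpy 2.4.6, pandas 2.3.3, scipy 1.17.1 and matplotlib 3.10.9 were used. On simulated data the code made 0 class errors in 2800 peaks and 0 reach errors in 2000 regions, and 3 of 3 pairs of lists gave the same counts in bedtools 2.31.1.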

Additional observations from a re-analysis of the deposited data

How the results depend on the processing

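Of 111 alternatives to the 12 tested results with all libraries kept, 101 had the direction reported and 10 had the opposite one, and none of the results could pass 0.05 under any of them. The difference in the share of H3K4me3 regions with RNAPII turned to 1.67 points with peaks at or above each list's median score, 18.8 with an overlap of 50%, 6.62 with one list of each mark, 9.52 with wild-type marks and 15.9 with H3K4me3 regions found in every list of the stage, whereas equal numbers of peaks gave -12.2. The distal share turned to -3.17 points with equal numbers of peaks, -0.235 with an overlap of 50% and -3.04 with one list of each mark. The wild-type setting also used the wild-type H3K27ac and Myc lists for every library. It turned the H3K27ac share of distal peaks to 0.72 points and the Myc share of promoter peaks to -0.612. No tumour H3K27ac or Myc enters these values, so they do not compare H3K27ac or Myc between the groups. The causes of the other changes were not tested. Leaving out each library in turn kept the direction in 59 of 60 values. The exception was the share of H3K4me3 regions with RNAPII, which ranged from -3.50 to 1.61 points. Regions in both spleen lists and no tumour numbered 74 in the upper-scoring part of each list and 750 with peaks of 500 bp, and regions in all 5 lists numbered 4872 in that upper part. An equal number of peaks gave no value for the peak number, which it fixes. No paired analysis was possible because each spleen genotype had 1 RNAPII library and the numbers of the tumours do not tie them to it.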
